A study of Sus scrofa with 20 samples.

Results

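Genes of the thyroid hormone axis were examined in the hypothalamus of German Landrace pigs. The 7 genes were TRH, TRHR, DIO2, DIO3, THRA, THRB and CRYM, and every probe set that the platform annotation assigned to one of these symbols was taken, dim ones included. This gave 16 of the 47722 probe sets that are not controls, and 7 of the 13755 gene symbols on the array. Expression was measured with 1 Affymetrix Porcine Snowball array per animal in 10 low-reactive (LR) and 10 high-reactive (HR) pigs, all labelled as adult. The animals were chosen as extremes of early-life coping behaviour and also by haplotype at a behaviour-associated region, so behaviour and haplotype cannot be told apart in these groups. That region lies on chromosome 12. The labels name no treatment, sex or hybridisation batch. Replicate numbers follow the order of deposition and only name the arrays. Values are log2 expression after robust multichip averaging (RMA), so a difference of 1 stands for a doubling.

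The thyroid hormone axis begins in the hypothalamus, where neurons of the paraventricular nucleus release thyrotropin-releasing hormone, the product of TRH. This tripeptide acts through the receptor encoded by TRHR, best known on the thyrotrope cells of the pituitary, which then drive the thyroid gland. In the brain, the deiodinase encoded by DIO2, found in rodents in tanycytes of the third ventricle wall and in astrocytes, converts the prohormone thyroxine to active triiodothyronine (T3), whereas the deiodinase encoded by DIO3, mainly neuronal in rodents, inactivates both hormones. T3 acts on the nuclear receptors encoded by THRA and THRB, and the THRB product carries much of the negative feedback on TRH in rodents. CRYM encodes mu-crystallin, a protein of the cytosol that binds T3.

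In the RefSeq annotation of Sscrofa11.1, TRH lies on chromosome 13 at 69362892 to 69366183 and THRB on the same chromosome at 10900716 to 11360587. TRHR lies on chromosome 4 at 28480637 to 28482031, DIO2 on chromosome 7 at 103096414 to 103110749 and CRYM on chromosome 3 at 24815010 to 24835837. DIO3 is on an unplaced sequence. THRA, at 22270506 to 22296684, was the only one of the 7 genes placed on chromosome 12, the chromosome of the haplotype region. Its end lies 30.6 Mb from ATP1B2, a gene of that region. THRA also shares 3626 bases with NR1D1, and which probes fall in the shared stretch is not given in the sources used here. These are positions of the genes, not of the probes.

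The arrays shared a strong common axis. Its measure here was the mean signal of 69 background controls, designed to hybridise to no transcript. This background control mean ran from 3.68 to 4.44. It had r = 0.98 with the first principal component of the brighter 50% of probe sets, which held 64.7% of their variance. LR arrays had 4.01 ± 0.17 and HR arrays 4.09 ± 0.26 (SD, n = 10 each). Of 9 measured hypothalamus markers (of 12 listed), AVP at 12.01, OXT at 11.92 and SST at 11.21 were the brightest on average. SIM1 at 6.07, CRH at 5.97 and AGRP at 5.47 were the dimmest. Of 8 measured anterior pituitary markers (of 9 listed), 5 (PRL, TSHB, CGA, FSHB and POU1F1) lay within 1 log2 unit of the background controls or below them. The mean of the pituitary list was 3.35 to 4.16 in LR and 3.71 to 4.28 in HR. LR replicate 3 stood apart: its mean over 7 thalamus markers was 7.65, against 6.22 to 6.66 in the HR arrays, and its mean over 9 measured hypothalamus markers was the lowest at 8.17, against 8.62 to 9.16 in HR. The part of these differences in the results on single genes was not tested, and values without LR replicate 3 are given where they differ. In whole tissue, fewer cells of a type and less RNA per cell cannot be told apart.

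No thyroid axis gene differed between HR and LR animals past the threshold. Of the 16 probe sets, 0 had a Benjamini-Hochberg adjusted p under 0.05 in limma, against 0 of 47722 (0%) over all probe sets, where the smallest adjusted p was 0.916. At an unadjusted p under 0.05 there was 1 of 16 (6.25%), a probe set of DIO3, against 4.57% of all probe sets. It was higher in HR, as were 2.21% of all probe sets at this level, and 0 of the 16 were lower, against 2.36% of all. The exact rank-sum test also gave 0 past the threshold among all probe sets, with 1873 at an unadjusted p under 0.05. Differences were as often positive as negative, 8 of each among the 16, where 43.8% of all probe sets were lower in HR, and their median was 0.02, as over all probe sets. The groups overlapped for all 16 probe sets, as they did for every probe set on the array.

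**Figure D1:**
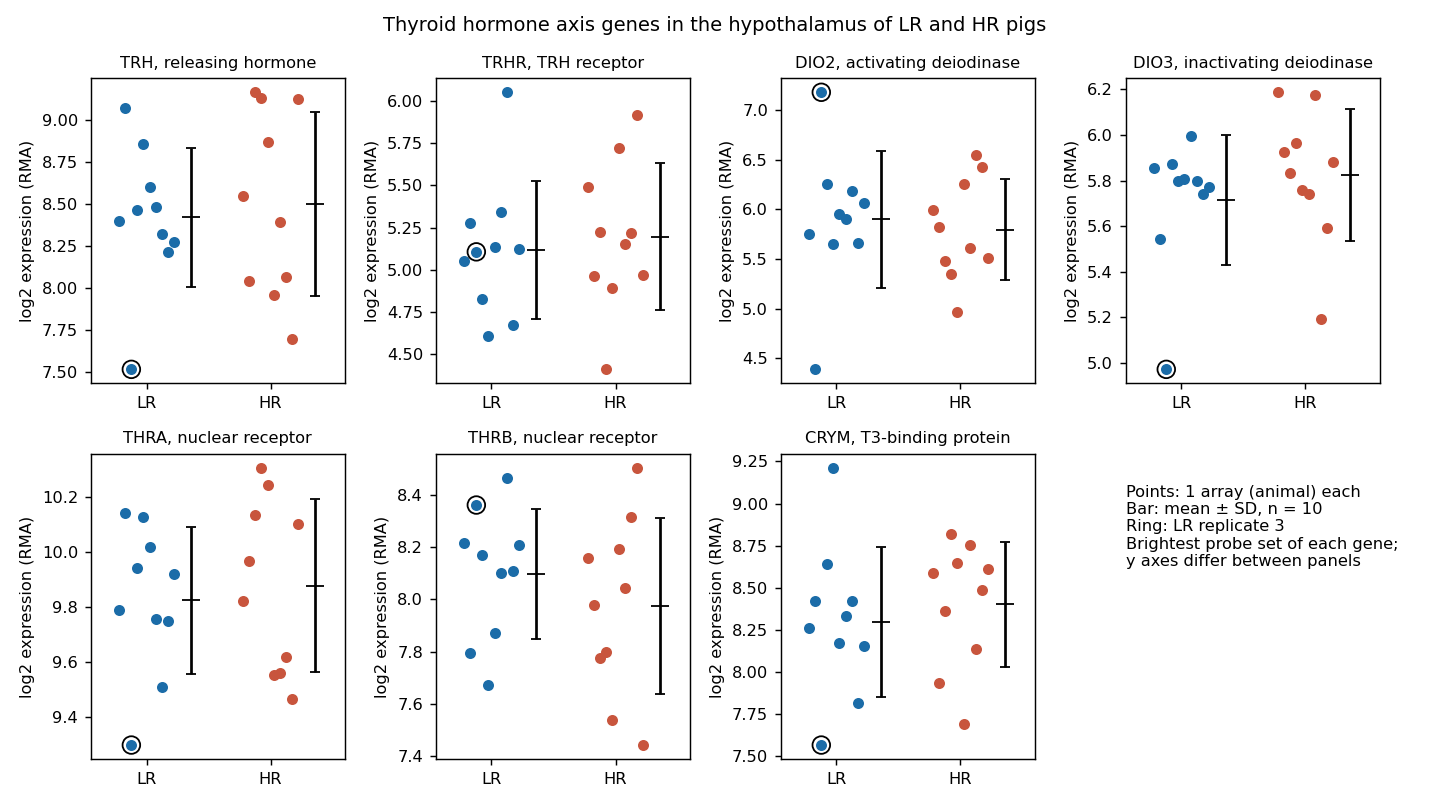
Log2 expression (RMA) of each thyroid axis gene, by its brightest probe set, in the 10 LR and 10 HR animals, with 1 point per array and the group mean ± SD beside the points. The groups overlap in every panel, and LR replicate 3 (ringed) is the lowest array for TRH, DIO3, THRA and CRYM and the highest for DIO2.

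TRH was well above background in all animals and had similar levels in both groups. In LR animals its value ran from 7.51 to 9.07 with a median of 8.43, and in HR animals from 7.70 to 9.16 with a median of 8.47. The difference HR minus LR was 0.08 ± 0.20 (SE; 95% interval -0.34 to 0.50; limma p = 0.701, adjusted p = 0.968), and 5 of 10 HR animals lay above the LR mean. The lowest animals of the groups were LR replicate 3 and HR replicate 9. Without LR replicate 3 the difference was -0.02, so its sign rested on that array. The animals spread more within the groups than the groups differed, with an SD of 0.41 in LR and 0.55 in HR.

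TRHR was dim, below the mean of 5.21 that marks the brighter 50% of probe sets. Its values ran from 4.61 to 6.05 (median 5.11) in LR and from 4.41 to 5.91 (median 5.19) in HR. The difference was 0.08 ± 0.18 (95% interval -0.29 to 0.45; limma p = 0.670, adjusted p = 0.964). The highest animals were LR replicate 8 at 6.05, with the next LR value at 5.34, and HR replicates 9 and 6 at 5.91 and 5.72. Without HR replicate 9 the difference was -0.0025 and without LR replicate 8 it was 0.18. It was 0.19 with the background control mean described above as a covariate, and 0.31 (limma p = 0.0618) without the 7 arrays whose background control mean lay over 1 SD from the average.

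The activating deiodinase DIO2 was represented by 5 probe sets, of which 1 was in the brighter 50%. This brightest probe set can bind several transcripts, so its assignment to DIO2 is less certain. Its values ran from 4.39 to 7.18 (median 5.93) in LR and from 4.96 to 6.54 (median 5.72) in HR, the widest range of the 7 genes. The difference was -0.10 ± 0.25 (95% interval -0.62 to 0.42; limma p = 0.686, adjusted p = 0.966). Both extremes were LR animals, replicate 2 at the bottom and replicate 3 at the top. Without LR replicate 3 the difference was 0.04, and without LR replicate 2 it was -0.27.

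The other 4 probe sets of DIO2 had means from 2.06 to 4.36. All 4 thus lay within 1 log2 unit of the background controls or below them, so how much DIO2 signal they hold is uncertain. Their differences were -0.24 ± 0.13, -0.02 ± 0.16, -0.16 ± 0.28 and -0.0042 ± 0.099, in order of falling mean. The first of these had the lowest p of the gene (limma p = 0.0706, adjusted p = 0.916), with 1 of 10 HR animals above the LR mean. It ran from 4.15 to 4.81 in LR and from 3.72 to 4.86 in HR, so the groups overlapped. The probe sets of DIO2 did not all vary together across animals. The brightest and the next-to-dimmest probe set had r = 0.83 (rho = 0.87, permutation p adjusted over 18 within-gene pairs 4.5e-05, with 0.78 within LR, 0.93 within HR and 0.86 without the 2 farthest arrays). After the background control mean was regressed out of both, it was 0.56 (adjusted p = 0.116). The 10 pairs in all went down to r = 0.13.

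The inactivating deiodinase DIO3 held the only probe set at an unadjusted p under 0.05. Its second probe set ran from 4.55 to 5.59 (median 5.04) in LR and from 4.87 to 5.93 (median 5.37) in HR. The means were 5.06 ± 0.28 and 5.39 ± 0.30 (SD, n = 10 each), and the difference was 0.33 ± 0.13 (95% interval 0.06 to 0.60, that is a fold of 1.04 to 1.52; limma p = 0.0179, adjusted p = 0.916). 9 of 10 HR animals lay above the LR mean, yet the groups overlapped over most of their range. Among all probe sets 5.33% had a difference of larger size in either direction. The difference was 0.27 to 0.39 when single arrays were left out, and 0.25 with the background control mean as a covariate. Over all alternatives its adjusted p was 0.579 or higher.

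The brightest probe set of DIO3 ran from 4.97 to 5.995 (median 5.80) in LR and from 5.19 to 6.19 (median 5.86) in HR, with a difference of 0.11 ± 0.13 (limma p = 0.405, adjusted p = 0.932). Without LR replicate 3, the lowest animal, it was 0.03. The 2 probe sets of DIO3 had r = 0.55 across animals (rho = 0.50; permutation p adjusted over the within-gene pairs 0.0277 and 0.0562), with 0.62 within LR, 0.47 within HR, 0.40 without the 2 farthest arrays and 0.36 without LR replicate 3. After background this relation was 0.33 (adjusted p = 0.292). Both probe sets were higher in HR on average. In the brightest, 8 of 10 HR animals lay above the LR mean and 6 above the LR median, against 9 and 9 in the second. Of both probe sets, only the second had an unadjusted p under 0.05. The mean of both gave 0.22 ± 0.12 (limma p = 0.0711, adjusted p = 0.917).

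The thyroid hormone receptor alpha gene, THRA, was bright in all animals, with group medians close to each other. Its brightest probe set ran from 9.30 to 10.14 (median 9.85) in LR and from 9.46 to 10.30 (median 9.89) in HR, with a difference of 0.05 ± 0.13 (95% interval -0.22 to 0.32; limma p = 0.693, adjusted p = 0.967). The second probe set, which can bind several transcripts, gave 0.05 ± 0.14. The lowest animals were the same as for TRH, LR replicate 3 and HR replicate 9, in both probe sets. Without LR replicate 3 the differences were -0.0067 and -0.03. The 2 probe sets had r = 0.90 across animals (rho = 0.92, adjusted p = 4.5e-05 by permutation), 0.85 without the 2 farthest arrays and 0.66 after background (adjusted p = 0.0131).

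THRB, the thyroid hormone receptor beta gene, had 4 probe sets, and 3 of them were lower in HR on average without passing the test. The brightest ran from 7.67 to 8.47 (median 8.14) in LR and from 7.44 to 8.50 (median 8.01) in HR, with a difference of -0.12 ± 0.13 (95% interval -0.40 to 0.15; limma p = 0.364, adjusted p = 0.927). The next 2 in brightness gave -0.24 ± 0.23 (p = 0.308) and -0.34 ± 0.29 (p = 0.253). The dimmest gave 0.06 ± 0.09. With the background control mean as a covariate the 3 negative differences were -0.02, -0.07 and -0.09. Leaving out single arrays moved them within -0.18 to -0.06, -0.36 to -0.14 and -0.46 to -0.22, with the smallest sizes without HR replicate 10, HR replicate 5 and HR replicate 4. The 3 brighter probe sets varied together over the animals (r = 0.83 to 0.88, rho = 0.83 to 0.91, without the 2 farthest arrays 0.84 to 0.89), whereas the dimmest had r = 0.19 to 0.36 with them. After background, the relations of these 3 were 0.46, 0.18 and 0.65, of which the last, between the second and the third in brightness, passed the threshold (adjusted p = 0.0131). Of all 18 within-gene pairs, 8 passed before and 3 after background. HR replicate 9, which was low for TRH and THRA, was the highest of all animals for the brightest 2 probe sets of THRB, at 8.50 and 8.31.

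CRYM ran from 7.57 to 9.21 (median 8.29) in LR and from 7.69 to 8.82 (median 8.54) in HR. The difference was 0.10 ± 0.17 (95% interval -0.26 to 0.47; limma p = 0.559, adjusted p = 0.951), with 7 of 10 HR animals above the LR mean. The lowest animal was again LR replicate 3, and without it the difference was 0.02.

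**Figure D2:**
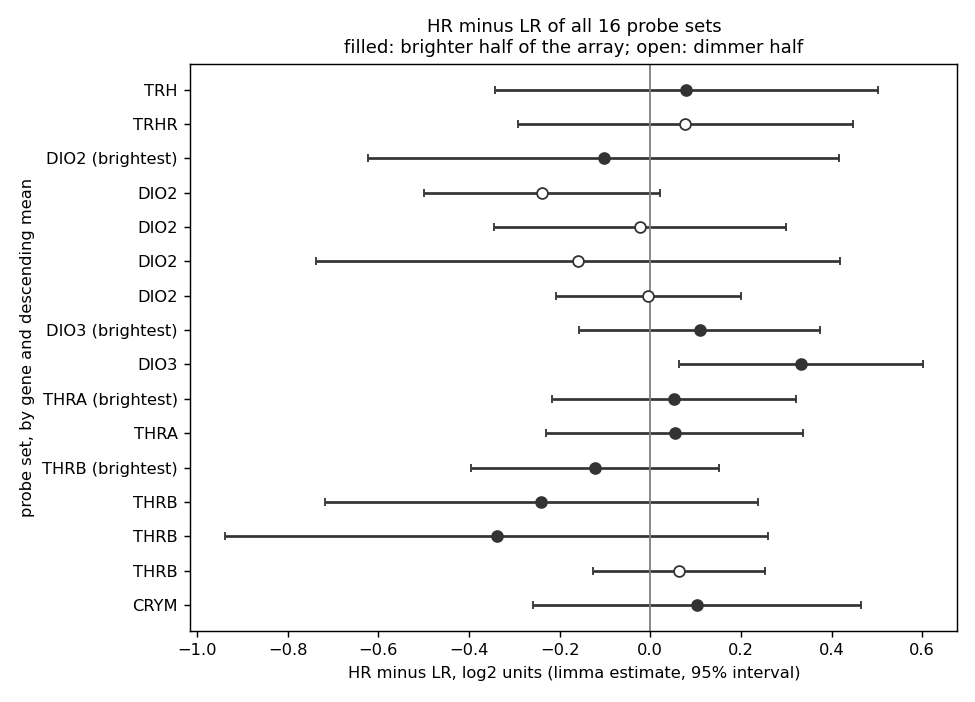
Difference HR minus LR (log2, with 95% interval from limma) of the 16 probe sets of the 7 genes, with 0 as no difference. The interval of 1 DIO3 probe set, 0.06 to 0.60, does not cover 0, and no probe set passed the adjusted threshold.

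The intervals bound differences in the measured signal. Of the 16 probe sets, 10 were in the brighter 50%. Signals of dim probe sets are compressed towards background, so their intervals do not bound a difference in the transcript. All 16 lay within a 2-fold difference in either direction, and 11 within 1.5-fold. The median half-width was 0.30 for the thyroid axis probe sets and 0.27 for all probe sets. The number of animals limits the precision, and differences inside these intervals are not excluded by them.

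Across the animals of both groups, the genes varied in a common pattern. Arrays with a higher background control mean had higher TRH and THRA and lower THRB and DIO2. Pearson's r with the background control mean over 20 arrays was 0.84 for TRH (rho = 0.85), 0.87 for THRA (rho = 0.86), -0.90 for THRB (rho = -0.91) and -0.78 for DIO2 (rho = -0.83), with permutation p adjusted over the 7 genes of 3.5e-05 to 7e-05. The same signs held within LR, where r was 0.75, 0.93, -0.90 and -0.66, and within HR, where it was 0.89, 0.85, -0.89 and -0.98. Without the 2 arrays farthest from the median background, r was 0.90, 0.85, -0.86 and -0.77.

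Relations to background were weaker for the brightest probe sets of the other 3 genes. TRHR had r = -0.63 (rho = -0.46; adjusted p = 0.00367 and 0.0498 by permutation), CRYM had r = 0.55 (rho = 0.61; adjusted p = 0.0136) and DIO3 had r = 0.49 (rho = 0.40; adjusted p = 0.0246 and 0.079). Within LR and HR, r was -0.56 and -0.75 for TRHR, 0.50 and 0.62 for CRYM and 0.37 and 0.55 for DIO3, and without the 2 farthest arrays it was -0.54, 0.62 and 0.61. When 7 arrays with a background control mean over 1 SD from the average were left out, the relation of TRHR was -0.23 and that of DIO3 was -0.017. Such relations were common on these arrays, since 60.3% of all probe sets had r over 0.5 in size with the background control mean and 24.1% over 0.8.

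**Figure D3:**
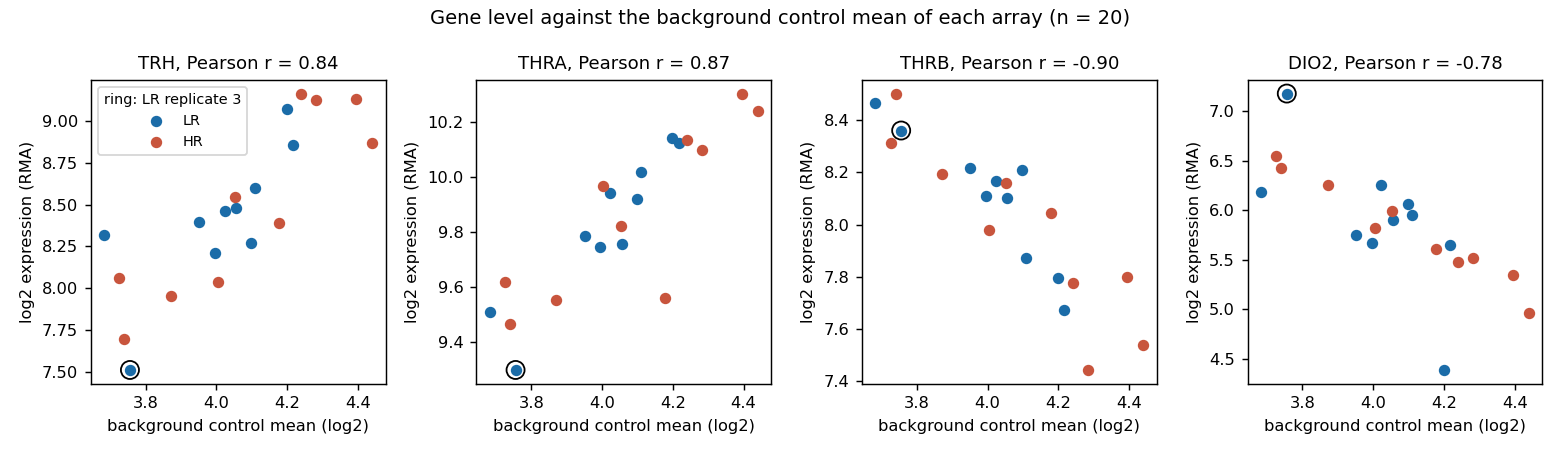
Log2 expression of TRH, THRA, THRB and DIO2 (brightest probe set) against the background control mean of the same array (log2), with 1 point per animal in LR and HR and LR replicate 3 ringed. TRH (r = 0.84) and THRA (r = 0.87) go up with the background mean and THRB (r = -0.90) and DIO2 (r = -0.78) go down, in both groups.

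The genes were also related to each other in the deposited values. Of 21 pairs, 11 passed an adjusted permutation p of 0.05 by Pearson's r and 7 by Spearman's rho. The share among all pairs of genes on the array was not computed, so these counts do not mark the 7 genes as particular. Over all probe sets, 60.3% had r over 0.5 in size with the background control mean. The receptor genes THRA and THRB were opposed, with r = -0.85 (rho = -0.85, adjusted p = 0.000105). That relation was -0.85 within LR, -0.85 within HR and -0.86 without the 2 arrays farthest from the median of THRA. TRH went with THRA (r = 0.87, rho = 0.85, adjusted p = 7e-05) and against THRB (r = -0.82, rho = -0.80) and DIO2 (r = -0.80, rho = -0.78). Within LR these were 0.89, -0.77 and -0.86, within HR 0.85, -0.86 and -0.81, and without the 2 farthest arrays 0.80, -0.78 and -0.71. DIO2 went with THRB (r = 0.74, rho = 0.85) and against THRA (r = -0.76, rho = -0.77), with 0.66 and -0.74 within LR, 0.89 and -0.83 within HR, and 0.82 and -0.72 without the 2 farthest arrays. The other 15 pairs had sizes of r between 0.091 and 0.65, the highest being TRH with CRYM.

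After the background control mean was regressed out of both genes, 0 of 21 pairs passed the threshold by either measure, and 2 had an unadjusted permutation p under 0.05 by Pearson's r. TRH with THRA had the largest size, r = 0.51 (rho = 0.50, permutation p = 0.0181, adjusted p = 0.381), with 0.69 within LR, 0.40 within HR and 0.44 without the 2 farthest arrays. The opposition of THRA and THRB was then r = -0.30 (adjusted p = 0.46) and that of TRH and DIO2 r = -0.44 (adjusted p = 0.46). The latter was -0.72 within LR, 0.58 within HR and -0.23 without the 2 farthest arrays.

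**Figure D4:**
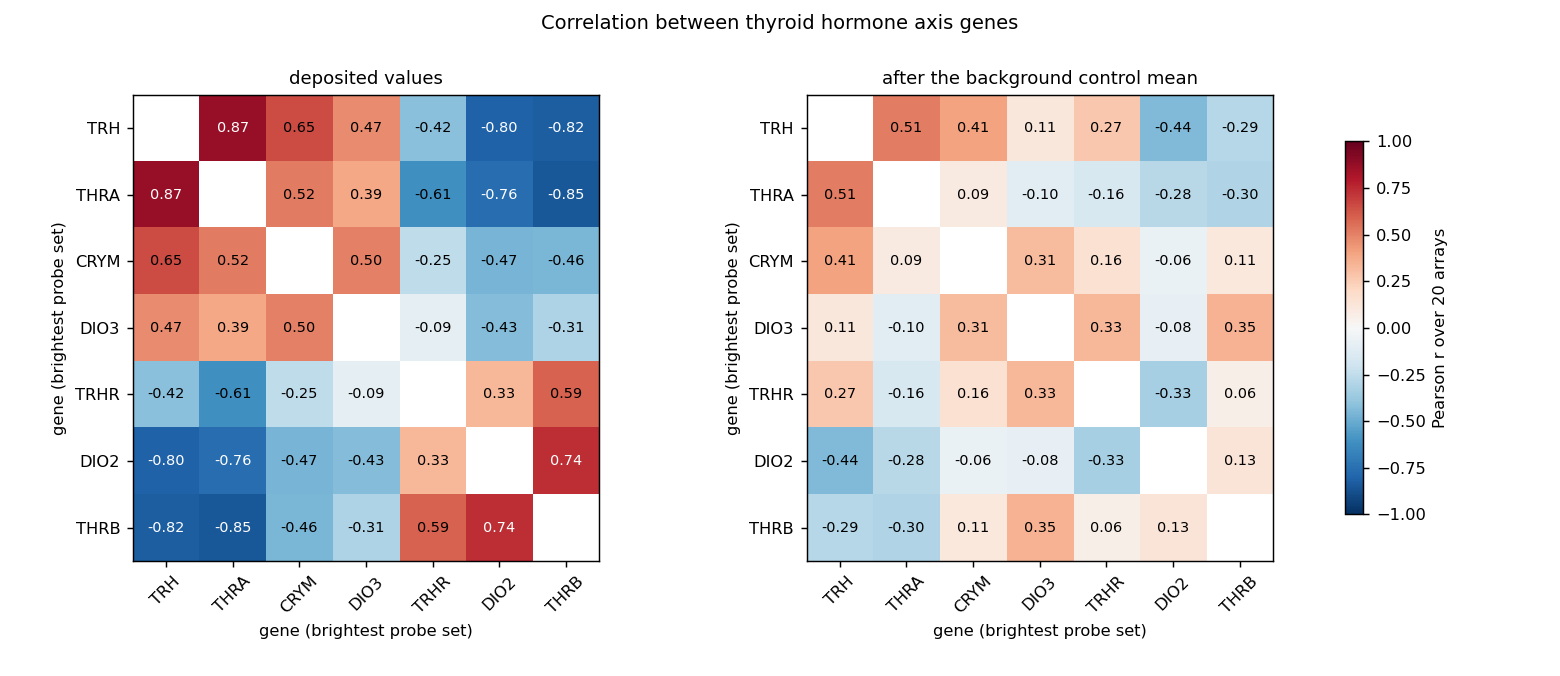
Pearson's r over 20 arrays between the brightest probe sets of the 7 genes, in the deposited values (left) and after the background control mean of the array was regressed out of both genes (right). In the deposited values 11 of 21 pairs passed the adjusted threshold, with THRA against THRB at -0.85, and after background 0 did, with TRH and THRA at 0.51.

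Levels of cell type markers moved with some of the genes. Of 56 relations of the 7 genes to 8 marker lists, 25 passed an adjusted permutation p of 0.05, and 0 did after the background control mean, where 10 had an unadjusted p under 0.05 and the smallest adjusted p was 0.0776. The share for other genes on the array was not computed. The highest raw value was between THRB and the 8 astrocyte markers (r = 0.91, rho = 0.92, adjusted p = 9.33e-05; 0.97 within LR, 0.88 within HR and 0.90 without the 2 farthest arrays), which was 0.40 after background. A list level is the mean of its genes, and the astrocyte genes did not all move together. In the astrocyte list, r with the background control mean was -0.94 for AQP4, -0.95 for SLC1A2, -0.88 for SLC1A3 and -0.91 for GJA1. It was 0.61 for GFAP, 0.80 for ALDH1L1, 0.79 for ALDOC and 0.12 for S100B. DIO2 had r = 0.79 with the astrocyte markers (rho = 0.88, adjusted p = 0.000124; 0.68 within LR, 0.97 within HR and 0.75 without the 2 farthest arrays). With the 8 measured tanycyte markers (of 9 listed) DIO2 had r = 0.15 (rho = 0.11, adjusted p = 0.607), and -0.30 without the 2 farthest arrays. The tanycyte genes also went in both directions, so their mean can hide relations of single genes. Their r with background was 0.74 for RAX, 0.74 for LHX2, 0.83 for NES and 0.20 for VIM. It was -0.64 for FRZB, -0.44 for COL25A1, -0.52 for SCN7A and -0.42 for SLC17A8, and the last 2 lay near background. After background DIO2 had 0.26 with the astrocyte list (adjusted p = 0.536) and 0.0050 with the tanycyte list.

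The 7 measured neuron markers (of 8 listed), of which RBFOX3 rose with background and the others fell, had relations of similar size. With them r was 0.82 for DIO2 (rho = 0.80, adjusted p = 0.000124), 0.84 for THRB (rho = 0.85, adjusted p = 9.33e-05), -0.84 for TRH (rho = -0.80, adjusted p = 9.33e-05) and -0.91 for THRA (rho = -0.91, adjusted p = 9.33e-05). Within LR these were 0.79, 0.81, -0.91 and -0.94, within HR 0.94, 0.84, -0.82 and -0.91, and without the 2 farthest arrays 0.81, 0.82, -0.87 and -0.90. After background they were 0.43, 0.07, -0.34 and -0.56, with an adjusted p of 0.0855 for THRA and higher for the other 3. TRH also had r = -0.80 with the astrocyte list (rho = -0.76, adjusted p = 0.000504; -0.74 within LR, -0.84 within HR and -0.78 without the 2 farthest arrays), and 0.0060 after background.

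TRH had r = 0.83 with the 9 measured hypothalamus markers (rho = 0.83, adjusted p = 9.33e-05; 0.87 within LR, 0.89 within HR and 0.84 without the 2 farthest arrays), and 0.61 after background (adjusted p = 0.0776). In that list r with background was -0.56 for PMCH and -0.0041 for SIM1, and from 0.40 (CRH) to 0.71 (SST) for the others. DIO3 had r = -0.75 with the thalamus markers (rho = -0.57, adjusted p = 0.00372; -0.89 within LR and -0.62 within HR) and -0.67 after background (adjusted p = 0.0776). In the deposited values that relation was -0.38 without the 2 farthest arrays and -0.48 without LR replicate 3. After background it was -0.40 and -0.41, so its size leaned on few arrays, LR replicate 3 among them. The thalamus genes had r with background from -0.77 (RORA) to 0.82 (PRKCD, near background). CRYM had r = -0.64 with the 6 oligodendrocyte markers (rho = -0.61, adjusted p = 0.00781; -0.44 within LR, -0.88 within HR and -0.54 without the 2 farthest arrays) and -0.60 after background (adjusted p = 0.0855). The oligodendrocyte genes went in both directions as well. Their r with background was 0.78 for MAG, 0.73 for CNP, 0.33 for CLDN11 and 0.15 for MOG, but -0.59 for MOBP and -0.94 for UGT8. Mean levels of the tanycyte list were 6.45 to 6.67 in LR and 6.45 to 6.68 in HR, and of the astrocyte list 10.57 to 11.29 and 10.43 to 11.20. The neuron list ran from 9.56 to 10.73 in LR and from 9.06 to 10.44 in HR, with 6 of its 7 genes lower in HR (median -0.27) and 0 at an unadjusted p under 0.05. The part of these levels in the values of the 7 genes was not tested.

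The genes whose pattern was most like that of each thyroid axis gene are given by Pearson's r over the 20 arrays among 10316 genes in the brighter 50%, with no test. For TRH these were NRSN2 (r = 0.97), POLR2I (0.95) and PTPRN (0.95), and after background NRSN2 (0.90) was again first. For THRA they were CREBBP, a histone acetyltransferase and coactivator (0.96), the transcription factor gene USF2 (0.96) and BCAN, which encodes the matrix proteoglycan brevican (0.96), in the same order after background (0.90, 0.85 and 0.82). For THRB, ERCC6, a DNA repair gene, was first before (0.95) and after background (0.81). For CRYM they were LHX2, a homeobox gene (0.86), and SST, which encodes somatostatin (0.86), and both led after background too (0.81 and 0.80). DIO2 was nearest to LGR4 (0.90), and after background to PPP1R2 (0.81), an inhibitor of protein phosphatase. DIO3 was nearest to NR6A1 (0.83), and after background to IRAK3 (0.80), while TRHR was nearest to NRK (0.82) and then to ADAMTS13 (0.71).

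Around these 7 genes, other parts of the pathway were counted from 7 lists by the brightest probe set of each gene. None of their genes passed the adjusted threshold, and 1 had an unadjusted p under 0.05. With 5 to 14 measured genes per list, this was a smaller share than the 4.38% of all 13755 genes with a symbol. The gene at that level was PREP, which encodes prolyl endopeptidase, a protease that can cleave TRH. It belonged to the list of TRH peptide processing and breakdown, in which 2 of 7 measured genes (of 9 listed) were higher and 5 lower in HR, with a median of -0.19 against 0.01 over all genes. PREP itself was lower by a difference of -0.19 ± 0.07 (limma p = 0.0165, adjusted p = 0.916). Without LR replicate 3 the median of that list was -0.10.

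Thyroid hormone transporters were measured for 6 of 7 genes, with 2 higher and 4 lower in HR and a median of -0.05, which was 0.06 without LR replicate 3 and 0.02 with the background control mean as a covariate. SLC3A2 and SLC7A5, which together form an amino acid carrier that also takes up thyroid hormones, had differences of 0.15 ± 0.16 each. Receptor partners and coregulators (14 of 16 measured) had 5 higher and 9 lower, with a median of -0.15, which was -0.02 with that covariate and -0.06 without HR replicate 5. In that list EP300, a coactivator, had -0.19 ± 0.10 (p = 0.0731) and NCOA1, a coactivator of nuclear receptors, -0.34 ± 0.25. None of these differences passed the test.

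Genes of TRH receptor signalling (8 of 9 measured) had 1 higher and 7 lower in HR, with a median of -0.11, which was -0.05 both without LR replicate 3 and with that covariate. Its genes of smallest p were the protein kinase C gene PRKCE (-0.10 ± 0.07) and the calcium channel gene ITPR1 (-0.38 ± 0.28). Regulators and specifiers of TRH neurons (10 of 11 measured) had 3 higher and 7 lower, with a median of -0.09, and SOCS3, an inhibitor of leptin signalling, gave 0.20 ± 0.10 (p = 0.0624) and the neuropeptide Y receptor gene NPY1R -0.35 ± 0.23. Other deiodinase and pituitary-thyroid genes (6 of 8 measured) had 5 higher and 1 lower with a median of 0.06, which was 0.01 without LR replicate 3, and 3 of them (DIO1, TSHB and CGA) lay near background. EYA3, a coactivator that drives TSHB in seasonal mammals, gave -0.38 ± 0.21 and DIO1 0.15 ± 0.10 in that list. Thyroid hormone responsive genes (5 of 8 measured) had 3 higher and 2 lower with a median of 0.01, which was -0.08 when each gene was averaged over its probe sets, with KLF9, a T3-induced transcription factor, at -0.16 ± 0.13 and NRGN, which encodes neurogranin, at 0.19 ± 0.21. In no list did more than 1 gene reach an unadjusted p under 0.05.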

How the data were processed

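RNA of hypothalamus from 20 pigs was hybridised to Affymetrix Porcine Snowball arrays. The deposited log2 values were made by the authors by RMA, and the submitters' processing notes name GCOS 1.1.1. RMA equalises the distribution of values between arrays, so a shift of most transcripts cannot be seen, and dim probe sets are compressed towards background. The authors' filter on detection was not applied here, since the table holds all probe sets. After 123 control probe sets were set aside, HR and LR were compared over 47722 probe sets by linear models without covariate or filter (R 4.3.3; lmFit and eBayes of limma 3.58.1), with Benjamini-Hochberg adjustment and a threshold of 0.05. A gene was summarised by its probe set of highest mean. Relations over arrays were tested with 100000 two-sided permutations. Array signals have no read depth, and the number of arrays limits the precision.

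The genes, lists and tests were chosen with earlier results of these data known. Named genes are all probe sets of the 7 genes, from each pathway list those at an unadjusted p under 0.05 or else the 2 of smallest p, and the genes of highest r. Of the 13755 array symbols, 13394 were found in RefSeq. Nothing in the sources used here says how samples were spread over hybridisation days. Alternatives were a filter on dim probe sets, repeated quantile normalisation, centring, array weights, a trended fit, covariates, a rank test and leaving out arrays; those on the relations were chosen after seeing the data. The script was tested on simulated data, with pass conditions set only for independent noise, which lacks the common axis of these arrays.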

Additional observations from a re-analysis of the deposited data

Results flagged for a closer look

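In 3 of 32 groups of values (16 probe sets in LR and in HR, 10 arrays each) 1 array lay far from the others by Dixon's 95% critical value for the gap to the nearest array over the whole range. Chance sets 1 array apart in about 1 in 20 groups. TRHR was 6.05 in LR replicate 8, where the next value was 5.34. The next-to-dimmest probe set of DIO2 was 5.68 in LR replicate 3, where the next was 4.26, and the brightest probe set of DIO3 was 4.97 in the same animal, where the next was 5.55.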

How the results depend on the processing

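No thyroid axis probe set passed the adjusted threshold under any alternative, and neither did any other probe set. The count of all probe sets at an unadjusted p under 0.05 was 2180, 1091 in the brighter 50%, 3547 with array weights and 3509 with the first component as covariate. Leaving out single arrays moved it from 1385, when HR replicate 5 was omitted, up to 4069, when HR replicate 8 was. The share of these that was lower in HR was 51.7%, and 68.1% after arrays were centred on their median, 73.5% in the brighter 50%, 42.8% with array weights and 47% without 7 arrays of extreme background, so the balance turned with the setting. Of the 16 probe sets, 1 was at that level, 2 after repeated quantile normalisation and with array weights, and 1 to 2 with an array left out. Both DIO3 probe sets kept their sign throughout, as did the second-brightest of DIO2 and all of THRB but the brightest. Signs turned for TRH (-0.0777 and -0.0759), brightest DIO2 (0.0788 and 0.0822), next-to-dimmest DIO2 (0.0485 and 0.0481) and both THRA probe sets (-0.0457 and -0.0455; -0.0434 and -0.0449) with the background mean and the first component as covariate, and for the dimmest DIO2 with array weights (0.0208) and the first component (9.95e-05). Without 7 arrays of extreme background they turned for TRH (-0.12), DIO2 (0.13, 0.0742 and 0.0159), THRA (-0.12 and -0.11), brightest THRB (0.0121) and CRYM (-0.11), and r with background was -0.23 for TRHR and -0.0175 for DIO3. There TRH with DIO2 was -0.64, DIO2 with THRA -0.45 and DIO2 with THRB 0.59, none past the threshold, and 3 pairs passed against 11. The cause was not tested. Fewer arrays entered, and by the rule of their choice they covered a narrower range of the background control mean.

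With 1 array left out, differences ranged from -0.0211 to 0.17 (TRH), -0.0025 to 0.18 (TRHR), -0.27 to 0.0397 (brightest DIO2), -0.0949 to 0.0327 (the middle of the 5 DIO2 sets), -0.249 to 0.059 (next-to-dimmest DIO2), -0.0404 to 0.0378 (dimmest DIO2), 0.0264 to 0.18 and 0.27 to 0.39 (DIO3), -0.0067 to 0.0978 and -0.0291 to 0.12 (THRA), -0.18 to -0.063 (brightest THRB) and 0.022 to 0.20 (CRYM), the median of TRH peptide processing genes from -0.198 to -0.096, and pairs past the threshold from 9 to 14. r of DIO3 with background ranged from 0.40 to 0.55, and lost its call without either of 2 arrays. No paired analysis was possible because the labels give no shared replicate numbers.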
